A study of Mus musculus with 4 samples.

Results

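Tuft cells are rare chemosensory cells of the intestinal epithelium, and 9 genes that mark them were followed here through mouse colonic organoids (colonoids) grown with or without butyrate. The genes were *Pou2f3*, *Gfi1b*, *Trpm5*, *Dclk1*, *Avil*, *Sh2d6*, *Ptgs1*, *Alox5ap* and *Il25*. They were taken by symbol from 36144 gene names, and all 9 had a row. After removal of genes without more than 10 counts in at least 2 libraries, 13979 genes were left, 6 of the 9 among them. The study asked how butyrate, a short-chain fatty acid made by gut bacteria, acts on the identity of hormone-producing cells of the colon, and bulk RNA-seq of colonoids was one of its experiments. The 4 conditions sequenced, with 1 library each, were untreated colonoids and colonoids given 2 mM sodium butyrate, both at 48 h and at 72 h. All colonoids were at passage 3 and came from the colon of a male mouse aged 24 weeks. The sample labels give its genotype as wild type, whereas the paper describes Hes1-GFP reporter mice, with a single such animal as the source of the sequenced colonoids. All 4 cultures also shared a medium with EGF, Noggin, R-spondin, the GSK3 inhibitor CHIR99021 and the ROCK inhibitor Y-27632 and were grown from isolated crypts, with no immune or mesenchymal cells added.

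With 1 library per condition there was no replicate error, so no test was made and no p-value is given. Each value stands beside a 95% interval that covers counting error alone: an exact Poisson interval for a level, and for a change an exact interval (Clopper-Pearson) computed from both counts. Log2 fold changes of single genes include a pseudocount of 1. Those of summed counts, the differences between times, interval ends, folds and ratios are of normalised counts without it. A fold can thus be slightly larger than its log2 value gives, and a difference between times can depart slightly from the printed changes. Spread between cultures was not measured, and a difference outside its counting interval may still lie within it. Totals ran from 20790225 to 24207840 counts per library, and the floor of 3 counts corresponds to 0.124 to 0.144 CPM, a count scaled by its library total. No change is given where both libraries are at or under the floor, a bound against the floor where 1 of them is at 0, and a ratio with its counting interval where 1 of them has 1 to 3 counts. Mitochondrial genes took 14.1% to 18.4% of the counts. In bulk RNA, fewer tuft cells and less RNA per tuft cell cannot be told apart.

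Tuft cells carry a tuft of long microvilli and detect luminal metabolites and parasites through a taste-like cascade, in which receptors act through a G protein and phospholipase C to open the cation channel TRPM5. Activated tuft cells release the cytokine IL-25, cysteinyl leukotrienes, prostaglandins and acetylcholine, and through IL-25 drive type 2 immunity. The POU-domain factor POU2F3 is required for the lineage. The 9 genes therefore fall into regulators (*Pou2f3*, *Gfi1b*), the taste channel (*Trpm5*), a kinase and cytoskeletal or adaptor proteins (*Dclk1*, *Avil*, *Sh2d6*), eicosanoid enzymes (*Ptgs1*, *Alox5ap*) and the effector cytokine (*Il25*).

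Promoters of 6 of the 9 genes were read from RefSeq on the GRCm38.p6 build, 7 windows in all, each spanning 250 bases before to 50 bases after a transcription start. *Pou2f3*, *Il25* and *Alox5ap* had no entry in the table. The octamer ATGCAAAT, the motif bound by POU factors, was searched on both strands of each window because one of the genes encodes such a factor. It occurred in 0 of the 6 genes and in 1.74% of all 32851 promoters of that length. Its first 7 letters, ATGCAAA, a search chosen after the promoters had been read, occurred in 1 of the 6 genes, *Avil*, and in 4.63% of all promoters. In *Avil* it was found on the minus strand at positions −115 to −109 from the start and on the plus strand at −15 to −9. The letters CAGCTG (an E-box) and TATAAA were in 0 of the 6, against 16.3% and 13.6% of all promoters. A match describes letters in a window and not binding. The sequences shown are that of *Avil*, which holds the matches in capitals, those of the 2 *Dclk1* starts, which gene-level counts cannot separate, and that of *Ptgs1*, the gene whose levels differed most from the rest. All are given 5′ to 3′ on the plus strand of GRCm38.p6, at chr10:127000459-127000758, chr3:55242114-55242413, chr3:55461478-55461777 and chr2:36230176-36230475.
Avil: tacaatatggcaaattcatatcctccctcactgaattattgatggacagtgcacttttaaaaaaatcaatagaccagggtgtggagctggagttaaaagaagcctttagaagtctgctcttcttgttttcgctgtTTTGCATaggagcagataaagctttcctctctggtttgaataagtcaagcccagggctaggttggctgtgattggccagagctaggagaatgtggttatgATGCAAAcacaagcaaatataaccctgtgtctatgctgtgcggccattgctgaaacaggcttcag
Dclk1, first start: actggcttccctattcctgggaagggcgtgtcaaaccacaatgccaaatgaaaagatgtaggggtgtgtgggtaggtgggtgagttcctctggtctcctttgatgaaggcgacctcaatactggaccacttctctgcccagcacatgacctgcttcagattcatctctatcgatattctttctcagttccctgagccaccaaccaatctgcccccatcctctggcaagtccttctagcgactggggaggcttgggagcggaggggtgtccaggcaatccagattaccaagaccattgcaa
Dclk1, second start: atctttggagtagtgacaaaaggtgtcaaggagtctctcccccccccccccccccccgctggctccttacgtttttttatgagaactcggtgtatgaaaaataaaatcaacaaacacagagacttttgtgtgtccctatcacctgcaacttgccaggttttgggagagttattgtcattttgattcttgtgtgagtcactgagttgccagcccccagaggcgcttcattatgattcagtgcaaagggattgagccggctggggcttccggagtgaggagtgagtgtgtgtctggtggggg
Ptgs1: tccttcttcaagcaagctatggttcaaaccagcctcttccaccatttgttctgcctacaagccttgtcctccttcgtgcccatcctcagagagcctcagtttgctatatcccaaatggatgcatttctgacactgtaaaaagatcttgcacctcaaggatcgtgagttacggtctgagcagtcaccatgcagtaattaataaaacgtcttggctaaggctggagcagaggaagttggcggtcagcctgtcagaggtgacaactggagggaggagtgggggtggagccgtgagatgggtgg

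The second *Dclk1* start lies 219364 bases downstream of the first and gives a shorter transcript. The counts were summed over transcripts, so the values of *Dclk1* below do not say which start was used.

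Of the 6 tuft genes that passed the filter, 5 were lower with butyrate at 72 h with counting intervals below 0, and 1, *Sh2d6*, was so at 48 h. Of all 13979 genes, 26.4% were lower with an interval below 0 at 72 h and 31.3% at 48 h, and of the 1439 genes in the members' range of levels 19.3% and 18.3%, so the 1 of 6 at 48 h is near the background. *Ptgs1* did not differ detectably at either time, and *Gfi1b*, *Il25* and *Alox5ap* were too low to compare closely. Over all 9 genes, the summed normalised count at 48 h was 546 without and 447 with butyrate. At 72 h it was 602 without and 251 with butyrate. Hence the butyrate library at 72 h was the lowest of the 4, and the other 3 lay between 447 and 602. With butyrate the sum was 2.40-fold lower at 72 h, or −1.27 as a log2 fold change (−1.49 to −1.04), and at 48 h the log2 fold change was −0.29 (−0.47 to −0.11). The change at 72 h exceeded that at 48 h by −0.98 on the log2 scale (−1.26 to −0.70), by a Wald interval on the 4 counts. In CPM the sums were 24.8, 20.4, 25.9 and 11.2, in the order untreated and butyrate at 48 h, then untreated and butyrate at 72 h, which is the order of every series of 4 values below.

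**Figure D1:**
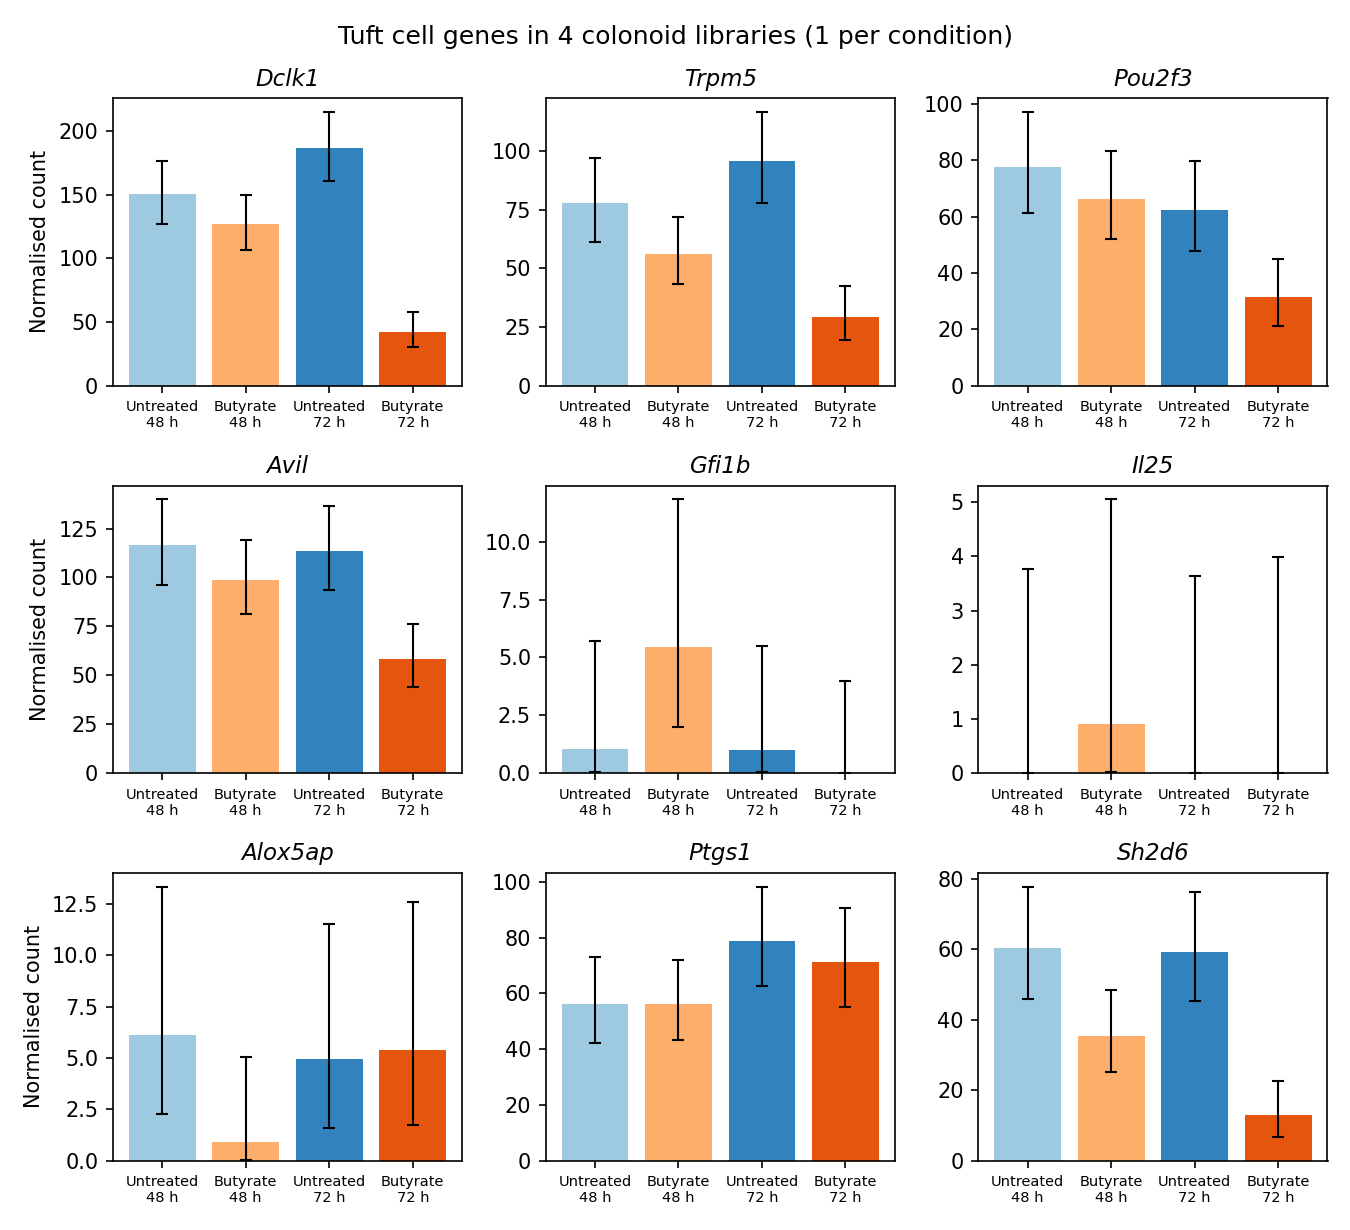
Normalised counts (DESeq2 size factors) of the 9 tuft cell genes, 1 panel per gene, with 1 bar per library and 95% Poisson counting intervals; the vertical scales differ between panels. In the panels of *Dclk1*, *Trpm5*, *Pou2f3*, *Avil* and *Sh2d6* the butyrate library at 72 h has the lowest bar, whereas *Ptgs1* has 71.3 there against 79.0 in untreated colonoids, and *Gfi1b*, *Il25* and *Alox5ap* stay between 0 and 6 counts.

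*Pou2f3*, the lineage regulator, lies on the minus strand of chromosome 9 from 43123939 to 43210369 (GRCm38; ENSMUSG00000032015.16). It had 76, 73, 63 and 29 counts, or 77.7, 66.2, 62.2 and 31.3 after normalisation. The first 3 libraries had overlapping counting intervals, and the butyrate library at 72 h lay below them. The log2 difference, butyrate-treated against untreated, was −0.23 (−0.71 to 0.25) at 48 h, and at 72 h it was −0.97 (−1.68 to −0.33), with a ratio 1.99-fold lower. The times differed by −0.76 (−1.55 to 0.03), an interval that reaches 0, so this depth does not show a difference. *Gfi1b*, a zinc-finger repressor found in tuft cells among epithelial cells, on chromosome 2 from 28609450 to 28621982, had 1, 6, 1 and 0 counts. Its ratio of butyrate to untreated at 48 h was 5.32 (0.646 to 245), an interval that includes 1, and at 72 h both libraries were under the floor.

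*Trpm5*, the calcium-activated cation channel at the end of the taste cascade, lies on the minus strand of chromosome 7 from 143069153 to 143094642 (ENSMUSG00000009246.14). Its counts were 76, 62, 97 and 27, and its normalised counts 77.7, 56.3, 95.8 and 29.2. Both untreated libraries lay above both butyrate libraries. With butyrate the log2 fold change at 48 h was −0.46 (−0.97 to 0.04), that at 72 h was −1.68 (−2.39 to −1.09), with a ratio 3.28-fold lower, and the times differed by −1.25 (−2.03 to −0.47). Its exons overlap those of *Tssc4* on the other strand, and the sources used here do not say whether the counting used strand. *Tssc4* had 380, 482, 387 and 407 counts, with log2 fold changes of 0.17 (−0.03 to 0.37) at 48 h and 0.20 (−0.0022 to 0.41) at 72 h, both with intervals that include 0.

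*Dclk1*, a microtubule-associated kinase widely used as a tuft cell marker, lies on the plus strand of chromosome 3 from 55242364 to 55539068 (ENSMUSG00000027797.15), with 15 annotated transcripts. It had 147, 140, 189 and 39 counts, or 150.3, 127, 187 and 42.1 after normalisation. Here the untreated library at 72 h was the highest, and the butyrate library at 72 h the lowest by a wide margin. Butyrate-treated colonoids differed by −0.24 (−0.59 to 0.10) on the log2 scale at 48 h, and by −2.12 (−2.68 to −1.64) at 72 h. As a ratio the level at 72 h was 4.43-fold lower, and the difference between the times was −1.90 (−2.50 to −1.31), the largest among the 6 genes that passed the filter.

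*Avil* encodes advillin, an actin-bundling protein of the villin family, and lies on the plus strand of chromosome 10 from 127000709 to 127020994 (ENSMUSG00000025432.11). Its counts of 114, 109, 115 and 54 became 117, 98.9, 114 and 58.3 after normalisation. Levels in the first 3 libraries differed by less than their counting intervals. The butyrate library differed by −0.24 (−0.63 to 0.15) on the log2 scale at 48 h, and by −0.95 (−1.46 to −0.48) at 72 h, with a ratio 1.95-fold lower, and the times differed by −0.72 (−1.32 to −0.12). *Avil* shares exonic sequence with *Tsfm* on the opposite strand, which had 421, 548, 357 and 330 counts and log2 fold changes of 0.21 (0.02 to 0.39) at 48 h and 0.02 (−0.20 to 0.24) at 72 h.

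*Sh2d6*, which encodes an SH2-domain adaptor, lies on the minus strand of chromosome 6 from 72513641 to 72521707 (ENSMUSG00000052631.15). It had 59, 39, 60 and 12 counts, the last being the lowest count of any gene of the 6, or 60.3, 35.4, 59.2 and 12.96 after normalisation. The untreated libraries were alike, and each butyrate library lay below both. *Sh2d6* was the only one of the 6 whose 48 h interval excluded 0, at −0.75 (−1.39 to −0.16). At 72 h its log2 fold change was −2.11 (−3.22 to −1.28), with a ratio 4.57-fold lower, and the times differed by −1.42 (−2.49 to −0.36).

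*Ptgs1* encodes cyclooxygenase 1, which makes prostaglandin H2 from arachidonic acid, and lies on the plus strand of chromosome 2 from 36230426 to 36252272 (ENSMUSG00000047250.13). It had 55, 62, 80 and 66 counts, or 56.2, 56.3, 79.0 and 71.3 after normalisation. Both libraries at 72 h were above both at 48 h, with or without butyrate. At 48 h the ratio of butyrate to untreated was 1.00 (0.684 to 1.47), at 72 h it was 0.902 (0.641 to 1.27), so neither interval excluded 1 at this depth. *Alox5ap*, which encodes the protein that presents arachidonic acid to 5-lipoxygenase, had 6, 1, 5 and 5 counts (chromosome 5, 149264767 to 149288153). At 48 h its ratio was 0.148 (0.00322 to 1.22), at 72 h 1.09 (0.252 to 4.75), also with intervals that include 1. *Il25* (chromosome 14, 54932695 to 54935837) had 0, 1, 0 and 0 counts, under the floor in every library, so no change is given.

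**Figure D2:**
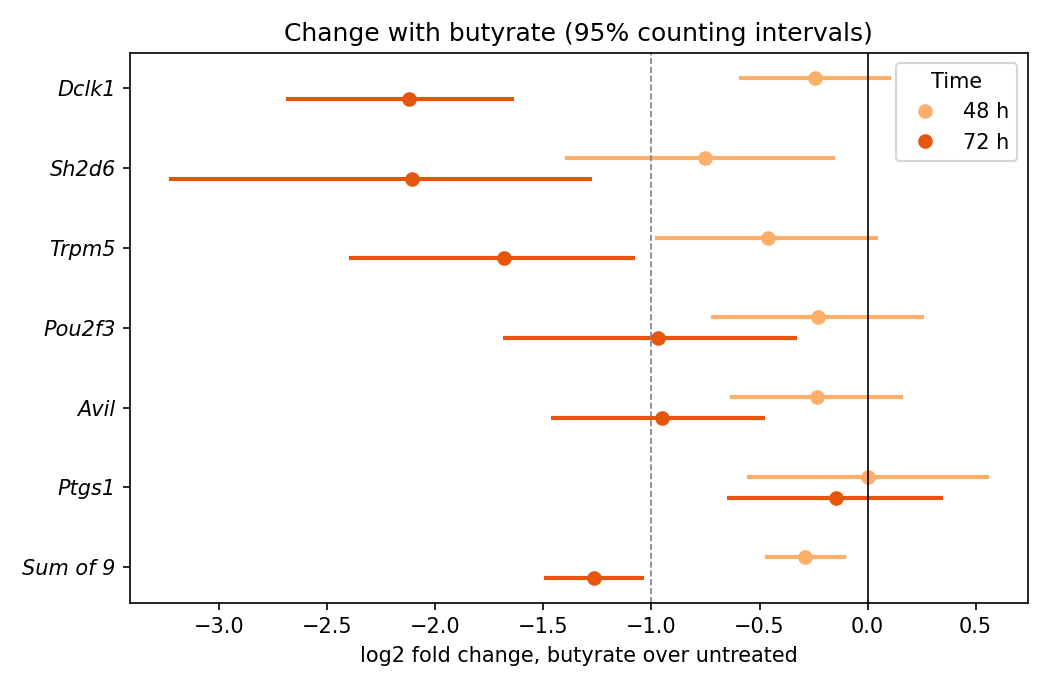
Log2 fold change, butyrate over untreated, at 48 h and 72 h for the 6 genes passing the filter and for the sum of all 9, with 95% counting intervals; the solid line marks no change and the dashed line a level 2-fold lower. At 72 h *Dclk1*, *Sh2d6* and *Trpm5* lie beyond the dashed line, *Pou2f3* and *Avil* just inside it, and *Ptgs1* at −0.15.

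Genes were called where they differed by at least 2-fold, a log2 fold change of at least 1 in size. At 48 h, 5 of the 6 genes were lower and 1 was higher, and 0 were called lower and 0 higher, against 3.08% of all genes called lower and 6.94% called higher. At 72 h all 6 were lower and 3 of them were called, *Dclk1*, *Sh2d6* and *Trpm5*, against 3.78% of all genes called lower and 4.53% called higher. All 6 had more than 10 counts in each library, so none passed the filter through the untreated libraries alone. The mean normalised counts of the 6 ran from 41.98 to 126.5. In that range lay 1439 genes, of which 6.46% were called lower at 48 h and 7.44% at 72 h, a comparison added after the data were seen. The median log2 fold change of the 6 was −0.24 at 48 h and −1.32 at 72 h, and that of all genes was −0.01 and 0.00.

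The same libraries were next compared over time, so these values share libraries with those above. In untreated colonoids the 6 genes went both ways between 48 h and 72 h, 3 lower and 3 higher, with a median of 0.14. The values were 0.31 (−0.01 to 0.63) for *Dclk1*, 0.30 for *Trpm5*, −0.32 for *Pou2f3*, −0.04 for *Avil*, 0.48 (−0.02 to 1.01) for *Ptgs1* and −0.03 for *Sh2d6*, and every interval included 0. None was called, against 1.82% of all genes called lower and 2.66% called higher. With butyrate, 5 of the 6 were lower at 72 h than at 48 h and 1, *Ptgs1*, was higher at 0.34 (−0.18 to 0.87). *Dclk1* was lower by −1.57 (−2.14 to −1.07), *Sh2d6* by −1.38 (−2.52 to −0.49) and *Pou2f3* by −1.06 (−1.75 to −0.44), and these 3 were called, against 4.95% of all genes called lower and 3.67% called higher. *Trpm5*, at −0.92 (−1.66 to −0.27), and *Avil*, at −0.75 (−1.26 to −0.28), were lower by less. The summed level was thus 0.14 (−0.03 to 0.31) in untreated and −0.84 (−1.07 to −0.61) in butyrate-treated colonoids.

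The makeup of the summed counts also differed. *Dclk1* gave 27.5%, 28.4% and 31.0% of them in the first 3 libraries and 16.8% (12.2% to 22.3%, exact binomial) in the butyrate library at 72 h. *Ptgs1* gave 10.3%, 12.6% and 13.1%, and then 28.4% (22.7% to 34.7%), the largest share of any of the genes in that library. *Avil* kept a share between 18.9% and 23.3% throughout. Without *Ptgs1*, a sum chosen after its values were seen, the log2 fold change at 72 h was −1.55 (2.92-fold lower), and without *Dclk1*, the most abundant by count, it was −0.996.

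The genes could be ordered by level per exon length, with every library scaled to the same total. *Avil* was highest with a mean of 3.01, followed by *Sh2d6* (2.61), *Pou2f3* (2.04), *Ptgs1* (1.78), *Trpm5* (1.06), *Dclk1* (0.868), *Alox5ap* (0.322), *Gfi1b* (0.110) and *Il25* (0.0232). *Dclk1*, with the most counts, was thus only the sixth per length, on 15296 bases of annotated exon. Among genes passing the filter these are low levels, with *Avil*, the highest, at percentile 22.9. In untreated colonoids at 48 h, *Avil* at 3.73 (3.08 to 4.48), *Sh2d6* at 3.88 (2.95 to 5.01) and *Pou2f3* at 2.74 (2.16 to 3.42) overlapped in their intervals. *Ptgs1*, at 1.57 (1.19 to 2.05), lay below *Pou2f3* and overlapped with *Trpm5* at 1.32 (1.04 to 1.65), which in turn overlapped with *Dclk1* at 1.07 (0.902 to 1.26). With butyrate at 72 h, *Ptgs1* was first at 1.96 (1.52 to 2.49), beside *Avil* at 1.83 (1.38 to 2.39), and *Sh2d6* was at 0.819 (0.423 to 1.43). When the longest transcript replaced the union of exons, 5 of the 9 genes kept their place: *Pou2f3* and *Ptgs1* swapped, as did *Trpm5* and *Dclk1*.

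**Figure D3:**
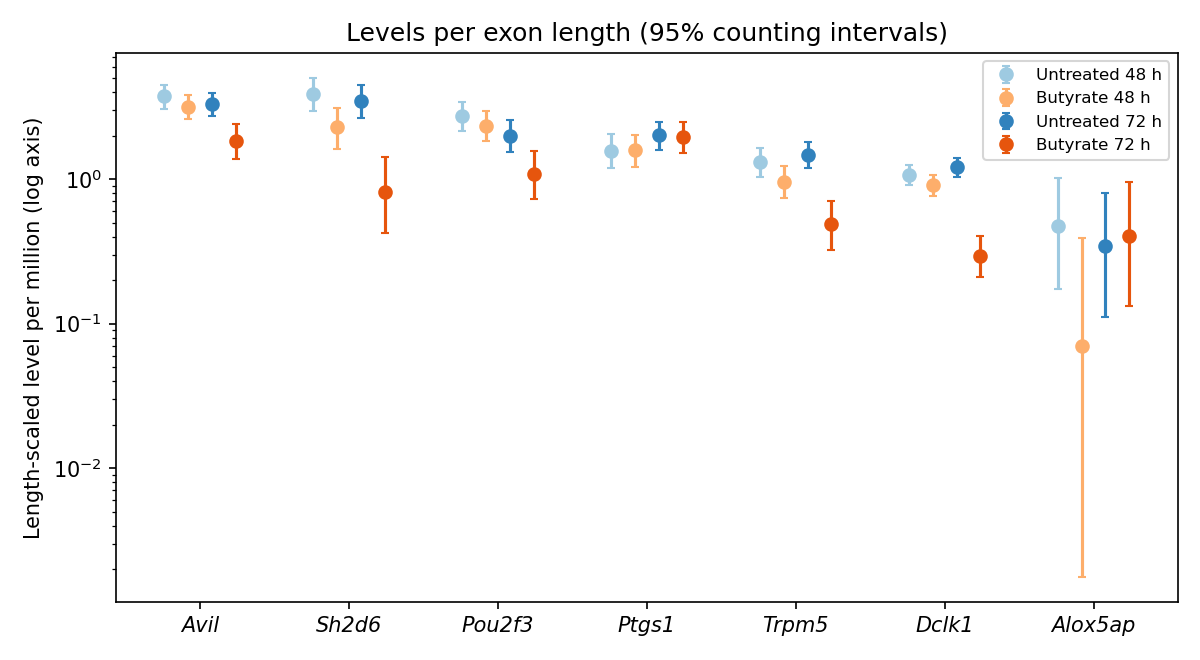
Level per exon length, each library scaled to the same total, on a log axis, for the 7 genes above the floor in at least 2 libraries, with 95% counting intervals. The butyrate library at 72 h is the lowest point for *Avil*, *Sh2d6*, *Pou2f3*, *Trpm5* and *Dclk1*, and for *Ptgs1* it is at 1.96, beside 2.01 in untreated colonoids at 72 h and 1.57 at 48 h.

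A further 57 genes of tuft cell biology were listed by function, of which 55 had a row (*Irag2* under its older symbol *Lrmp*) and 43 passed the filter. At 48 h, 20 were lower and 23 higher, with a median of 0.04. The 6 called lower were 14.0% of the 43, and 5 were called higher, where 3.08% of all genes were called lower and 6.94% higher. At 72 h, 29 were lower and 14 higher, with 14 called lower and 2 called higher and a median of −0.21. The 14 called lower were 32.6% of the 43, where 3.78% of all genes were called lower and 4.53% higher. That share was not matched to the companions' levels, and in the members' range of levels 7.44% of genes were called lower. Of those 14, 6 had at most 10 counts in the butyrate library at 72 h and 1, *Alox5*, passed the filter through the untreated libraries alone. The other 8 were among the 36 with more than 10 counts in all libraries. Over time in untreated colonoids, 3 were called lower and 1 higher (median 0.02), against 1.82% and 2.66% of all genes. With butyrate, 10 were called lower over time and 0 higher (median −0.44), against 4.95% and 3.67% of all genes.

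Of 14 chemosensory transduction genes, 8 passed. At 48 h 4 of these were lower and 4 higher, with a median of −0.09 and 2 called lower, against 3.08% of all genes. At 72 h 6 were lower and 2 higher, with a median of −0.45 and 3 called lower, against 3.78% of all genes. *Rgs13*, a regulator of G protein signalling, had 59, 28, 55 and 8 counts and log2 fold changes of −1.22 (−1.95 to −0.58) and −2.52 (−3.93 to −1.57) at 48 h and 72 h. *Rgs2*, of the same family, had 204, 76, 164 and 70 counts and changes of −1.58 and −1.09. *Plcb2*, the phospholipase C of the taste cascade, had 54, 53, 52 and 23 counts, with changes of −0.20 (−0.77 to 0.37) and −1.02 (−1.82 to −0.31). Of the receptors, the taste receptor gene *Tas1r3* had 30, 38, 34 and 36 counts, with changes of 0.16 (−0.56 to 0.91) and 0.21 (−0.51 to 0.93), and the succinate receptor gene *Sucnr1* had 0 in every library. The G protein genes did not pass the filter: *Gnat3* (gustducin) had 16, 6, 8 and 0 counts, *Gnb3* 8, 7, 4 and 2, and *Gng13* 6, 3, 4 and 2. *Chat*, which makes acetylcholine, had 8, 3, 1 and 0. *Atp2a3*, a calcium pump and the most abundant of the list per length, was lower by −0.26 at 48 h and −0.70 (−0.75 to −0.65) at 72 h. *Plcg2* was higher at 48 h by 0.47 (0.27 to 0.68), with −0.16 (−0.39 to 0.07) at 72 h. *Itpr3* differed by 0.48 (0.41 to 0.54) and 0.07 (0.006 to 0.13), and *Itpr2* by 0.02 and −0.21.

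Of 10 eicosanoid and cytokine genes, 8 passed, with medians of −0.06 and −0.16. The enzymes that act after *Ptgs1* went in opposite directions. *Hpgds*, the prostaglandin D2 synthase of haematopoietic and tuft cells, had 454, 300, 476 and 134 counts, with log2 fold changes of −0.77 (−0.99 to −0.56) and −1.69 (−1.99 to −1.42). *Ptges*, which makes prostaglandin E2, had 142, 421, 88 and 208 counts and was higher by 1.39 (1.12 to 1.68) and 1.36 (1.00 to 1.75). *Alox5*, the partner of *Alox5ap*, had 13, 4, 23 and 3 counts, with changes of −1.63 (−3.95 to −0.18) and −2.48 (−5.19 to −1.08). *Il17rb*, which encodes a chain of the IL-25 receptor, was higher at 48 h by 1.22 (0.84 to 1.64) and not detectably different at 72 h, at 0.01 (−0.40 to 0.43). *Il13ra1*, a chain of the IL-13 receptor and the most abundant of the list per length, differed by 0.12 and −0.33.

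Of 13 transcription factors 9 passed, with medians of 0.04 and −0.15. *Spib*, an ETS factor expressed in tuft cells, was the 1 called at both times, with 32, 17, 32 and 4 counts and log2 fold changes of −1.04 (−2.03 to −0.19) and −2.62 (−4.83 to −1.38). *Ehf*, the most abundant per length, differed by −0.07 and −0.13. *Pou2af2* and *Pou2af3*, which encode coactivators of POU2F3, were not analysed here. Of 20 structural and signalling genes 18 passed, with medians of 0.15 and −0.53, and 2 were called lower and 3 higher at 48 h, and 8 lower and 1 higher at 72 h, beside the shares of all genes given above (3.08% and 6.94%, then 3.78% and 4.53%). *Inpp5d*, which encodes the phosphatase SHIP1, had 24, 19, 26 and 0 counts. With the butyrate library set at the floor of 3 counts, it was 7.92-fold lower at 72 h, a log2 bound of −2.99. The upper end of its counting interval was −2.58, a weaker bound. *Fyb*, a haematopoietic adaptor, was lower at both times, by −1.78 and −1.04. *Vav1* (−1.15), *Bmx* (−1.83), *Lrmp* (−1.13), *Kctd12* (−1.37) and *Cd300lf* (−1.03) were called lower at 72 h only by the 2-fold rule, with 48 h values of 0.47, 0.25, −0.39, −0.83 and 0.39. Higher with butyrate at 48 h were *Matk* (2.28), *Espn* (1.53) and *Krt23* (1.22), of which *Matk*, a kinase that inhibits Src family members, was also called at 72 h (1.24). *Krt18*, the most abundant per length, differed by −0.17 and 0.15. Over all 43 genes, 6 were called lower at both times, among them *Rgs13*, *Rgs2*, *Alox5*, *Spib* and *Fyb*, and 2 higher at both, *Ptges* and *Matk*, where 0.887% of all genes were called lower and 2.55% higher at both times.

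**Figure D4:**
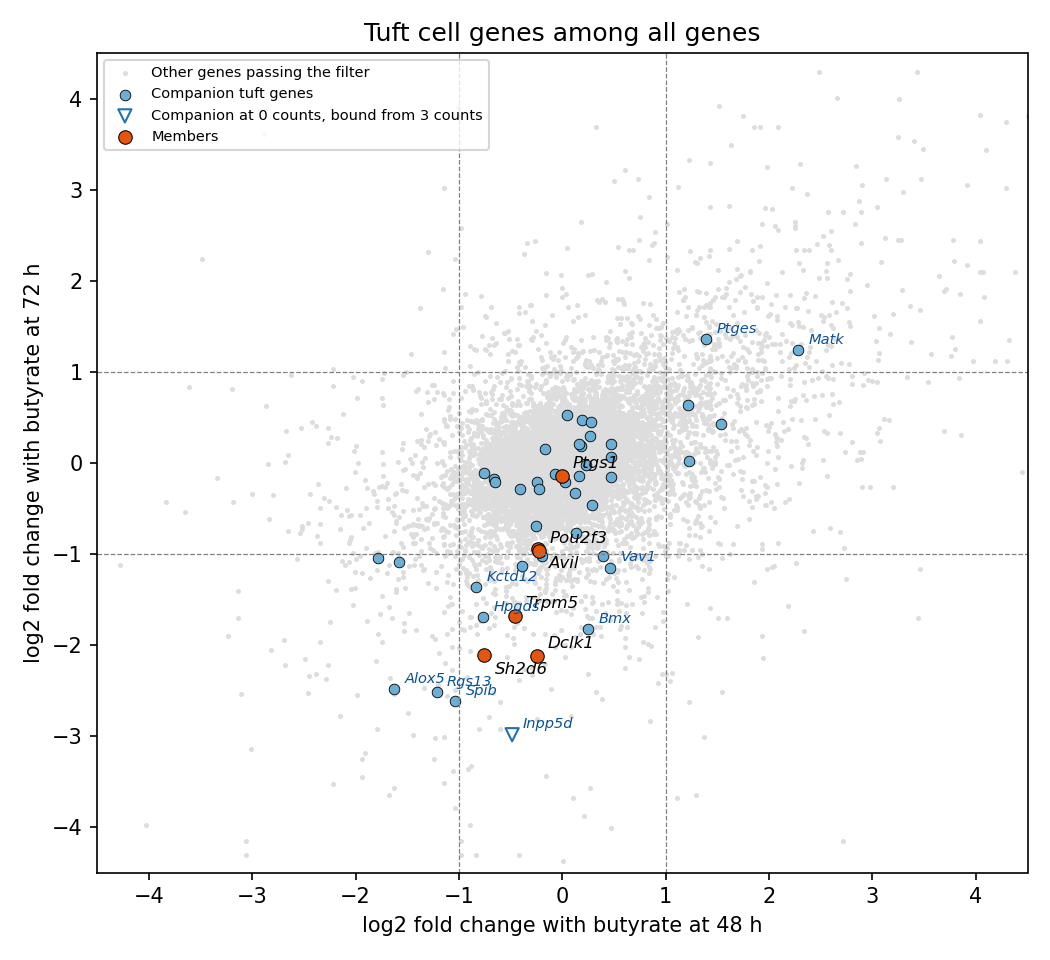
Log2 fold change with butyrate at 48 h (horizontal) and 72 h (vertical) for genes passing the filter, with the 6 members in orange, the companion tuft genes in blue and *Inpp5d*, at 0 counts, drawn as an open triangle at its bound; dashed lines mark 2-fold and 46 genes lie outside the axes. Of the members, *Dclk1*, *Sh2d6* and *Trpm5* lie below the lower dashed line at −0.24 to −0.75 on the horizontal axis, while *Ptges* and *Matk* lie at the upper right.

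Most markers of other differentiated epithelial cells had lower levels with butyrate at 72 h, 7 of 8 for goblet cells, 8 of 10 for enteroendocrine cells and all 8 for colonocytes, of which 3, 3 and 1 were called lower and 0 higher. Of all genes, 49.7% were lower and 3.78% called lower at that time. The part of these markers in the tuft result was not tested. All 8 pan-epithelial markers were present, with a summed normalised count of 137414 to 155532 and a log2 difference of −0.18 at 72 h, *Krt8* being the most abundant per length (−0.17). The goblet list summed to 114554, 92691, 167126 and 90757, or −0.31 at 48 h and −0.88 at 72 h. *Fcgbp* (−1.11), *Clca1* (−2.26) and *Zg16* (−2.53) were called lower at 72 h, with *Muc2*, the most abundant per length, at −0.87. At 48 h 5 goblet markers were lower and 3 higher, with *Muc2* at −0.49, *Tff3* at 0.77 and *Clca1* at 0.61. Enteroendocrine markers summed to 8671, 10007, 10450 and 5939, or 0.21 and −0.82, with *Pyy* (−1.45), *Tph1* (−1.05) and *Chga* (−1.04) called lower at 72 h and *Chgb*, the most abundant per length, at −0.81, whereas *Neurog3* was at 0.28 and *Scg5* at 0.23. At 48 h *Insm1* (−1.39) was called lower and *Tph1* (1.22) higher. Colonocyte markers gave 0.10 and −0.77, with *Car1* (1.14), *Car4* (1.87) and *Slc26a3* (1.29) called higher at 48 h and *Fabp2* (−1.21) lower at 72 h. At 48 h 6 colonocyte markers were higher and 2 lower, *Ceacam1* (−0.68) and *Fabp2* (−0.91). Stem cell markers gave −0.47 and 0.66, among them *Axin2* at −0.14 and 0.62, and *Olfm4* had 16, 2, 13 and 24 counts. The list medians at 72 h were −0.83 for goblet, −0.79 for enteroendocrine, −0.62 for colonocyte and 0.66 for stem cell markers, beside −1.32 for the 6 tuft genes, and differences between these lists were not tested.

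Several tuft genes are shared with blood cells, so markers of other sources were also read. Of 10 leukocyte markers 3 passed the filter, *Cd68*, *Itgam* and *Laptm5*, and *Itgam* had 48, 36, 41 and 43 counts. *Tyrobp* and *Adgre1* were at 0 in all libraries, while *Ptprc* had 5, 6, 15 and 6 counts and *Csf1r* 1, 2, 0 and 16. The leukocyte sum ran 194, 1258, 236 and 541, higher with butyrate at both times, and most of it was *Cd68*, a lysosomal protein gene with 128, 1309, 172 and 420 counts. *Laptm5* had 4, 26, 3 and 11. Among 8 mast cell markers, *Cpa3*, *Fcer1a*, *Mcpt1* and *Mcpt4* were at 0 throughout and *Kit* made up most of a sum of 1574, 821, 1484 and 994. Erythroid and megakaryocyte markers, which bear on *Gfi1b*, summed to 50.1, 97.1, 97.8 and 74.5, and 2 passed the filter. These were *Gp1bb*, the most abundant per length, with 31, 54, 52 and 36 counts, and *Itga2b* with 13, 25, 40 and 30. *Gp9* and *Hbb-bs* were at 0 throughout and *Ppbp* had 1, 20, 2 and 0 counts. Fibroblast markers summed to between 15.1 and 21.8, with *Col3a1* and *Lum* at 0. *Pdgfra*, the most abundant fibroblast marker per length, had 9, 11, 11 and 13 counts. Neuronal markers summed to between 157 and 200.4, with *Tubb3*, the most abundant per length, at 60, 47, 63 and 60 counts. *Snap25* had 71, 112, 110 and 61, *Elavl4* 16, 7, 8 and 14, and *Uchl1* 10, 24, 22 and 7.

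The genes most like the tuft genes in profile were sought among 11645 genes whose normalised counts averaged 50 or more. Likeness was the Euclidean distance between a gene's log2 levels, centred over the 4 libraries, and the mean profile of the 6 tuft genes, which was 0.35, 0.03, 0.47 and −0.86. The nearest was *Insl5*, a peptide hormone gene of enteroendocrine cells of the colon, at 0.111, with 266, 235, 302 and 99 counts. *Cyp3a13*, a cytochrome P450, followed at 0.132 (968, 849, 1149 and 432 counts), then *Gjb1*, a connexin, at 0.200 (237, 237, 322 and 111), *Gm6169* at 0.216 and *Gm2541* at 0.249. Of the companion tuft genes that reached this mean of 50, *Lrmp* came nearest, at place 54, followed by *Hpgds* at 60 and *Atp2a3* at 97. The tuft genes themselves lay between 0.275 (*Avil*) and 1.18 (*Ptgs1*) from their own mean. With 4 points per profile, this order is a description only.

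**Figure D5:**
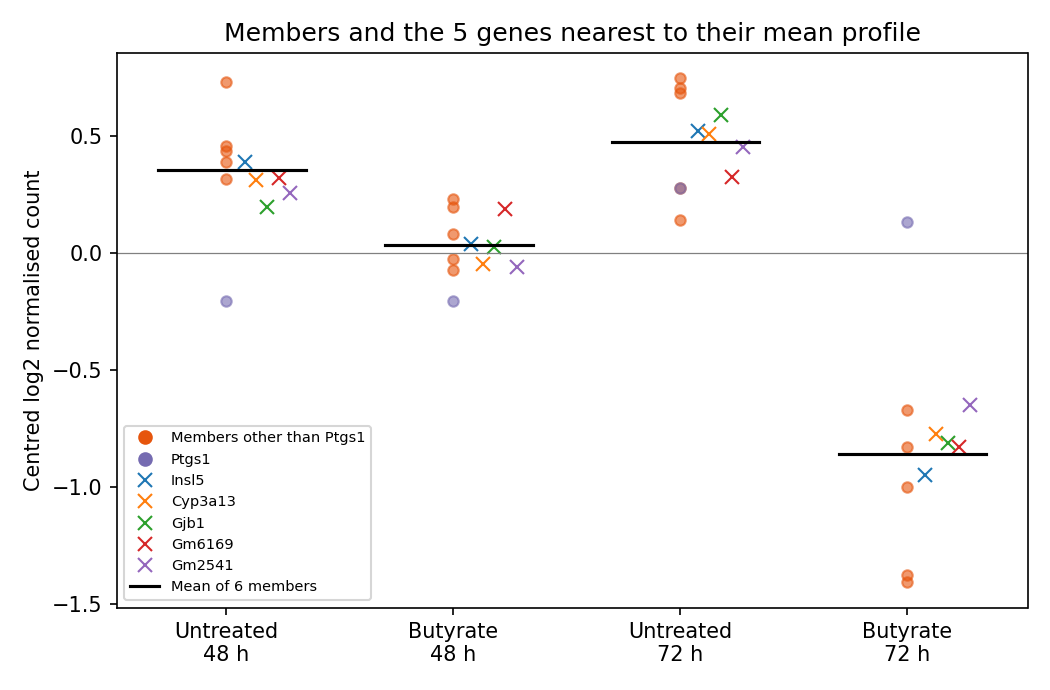
Log2 normalised counts centred over the 4 libraries for the 6 tuft genes (circles, *Ptgs1* in purple), their mean (black lines) and the 5 genes nearest to that mean (crosses). The mean is −0.86 in the butyrate library at 72 h, where *Ptgs1* alone lies above 0.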

How the data were processed

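RNA was sequenced from 4 colonoid cultures (untreated or 2 mM sodium butyrate, 48 h or 72 h), 1 library per condition, grouped by the sample labels. Libraries were made from poly-A RNA with Illumina TruSeq chemistry. The authors quantified reads with kallisto 0.44.0 on GRCm38.p6, per the submitters' processing notes, summed transcripts to genes with tximport and deposited estimated counts as whole numbers, without normalisation or filter. Here, genes were kept under the study's own filter (more than 10 counts, 2 or more libraries) and scaled by DESeq2 1.42.0 size factors (R 4.3.3). Log2 fold changes of single genes took a pseudocount of 1, and those of sums took none. Further steps ran in Python 3.11.15 with pandas 2.3.3 and scipy 1.17.1, and were tested on simulated data. Gene positions and exon lengths came from GENCODE on GRCm38, by symbol (35907 of 36144 names), and promoters from RefSeq.

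The members and lists were chosen with earlier results of these data known. Named were all 9 members, each list's most abundant gene per exon length, list genes with at least a 2-fold change with butyrate (up to 8 per list), and the 5 genes most like the members. Alternatives were scaling by edgeR 4.0.16 TMM or by total count, a pseudocount of 5, other filters, other sums and the longest transcript. Intervals cover counting error only, since reads were counted without molecular identifiers and so may repeat a molecule. The study's other experiments were not analysed here, and some listed genes are counted in their lists but not reported singly or plotted.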

Additional observations from a re-analysis of the deposited data

Results flagged for a closer look

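Among the 49 tuft genes that passed the filter (6 members and 43 companions), 5 companions differed in opposite directions with butyrate at the 2 times, and the counting interval excluded 0 at each. For *Il13ra1* the log2 fold change was 0.12 at 48 h but −0.33 at 72 h. *Sox9* had 0.16 and −0.15, and *Atoh1*, the factor of the secretory lineage, 0.29 and −0.46. *Krt18* went the other way, at −0.17 and 0.15. *Mgst3*, a glutathione transferase of microsomes, had the largest span of these 5, at 0.13 and −0.78. With 1 library per condition the difference between the times was not tested. The 5 are 10.2% of the 49, and 9.86% of all 13979 genes met the same description, so this share is near the background. Of the 6 members, 0 met this description. *Siglecf*, a companion that did not pass the filter, with 1, 13, 8 and 0 counts, also differed in opposite directions.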

How the results depend on the processing

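No paired analysis was possible because the conditions compared share only 1 replicate number. A fit with time as a block over the 4 libraries, which would take the difference between the times as its error, was not made, and with 1 library each none was left out. Of 218 recomputed values, 201 stayed within their counting error or, for counts of genes, within 1.5 times their size. Under TMM scaling, total count scaling or a pseudocount of 5, the 6 members kept the sign of their change in each comparison, except *Ptgs1* at 48 h, which is near 0 (−0.0077 with TMM), and 3 members were called lower at 72 h. With a filter on the mean (50 normalised counts or more), which leaves out *Sh2d6*, 2 members were called lower at 72 h, and 2 between the times with butyrate, as also with a pseudocount of 5. The median untreated change over time turned from 0.14 to −0.025 when the 3 members with 0 to 6 counts were added. The sum at 72 h moved to −0.996 without *Dclk1* and to −1.55 without *Ptgs1*. The share of all genes called lower was 6.46% at 48 h and 7.44% at 72 h within the members' range of levels, an addition made after the data were seen. With the filter on the mean, genes called lower and higher numbered 180 and 458 at 48 h, 187 and 271 at 72 h, 98 and 88 over time untreated, and 292 and 193 over time with butyrate, since fewer genes are counted. A pseudocount of 5 gave 167 and 229 over time untreated. Per length, 5 of 9 members kept their place with the longest transcript, and a 7-letter octamer search, added after reading the promoters, found 1 gene. *Il25*, *Gfi1b* and *Alox5ap* are limited by depth.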
